A study of Homo sapiens with 2 samples.

Results

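Alkaline phosphatases and the proteins that make, move and break down pyrophosphate were followed in Ca9-22 cells that carried either an empty vector or a PTHLH vector. The genes were ALPP, ALPL, ALPI, ENPP1, ANKH, PHOSPHO1, SLC20A1 and SLC20A2. They were chosen by name, as 8 of the 19775 genes measured, with the high value of ALPP already known from these same arrays. The choice therefore carries the size of the ALPP difference with it, and that value is given as a description. Ca9-22 is an established human line derived from a squamous carcinoma of the gingiva. PTHLH encodes parathyroid hormone-like hormone, a secreted peptide that acts through the PTH1R receptor and raises blood calcium in many cancer patients. Both cultures were infected with a lentiviral vector and selected with blasticidin, the drug to which the vector gives resistance, so each was a stable mixture of infected cells rather than a clone. Total RNA from 1 culture of each kind was hybridized to 1 Affymetrix U133 array, which gave 1 intensity in arbitrary units for each of 54675 probe sets, groups of short oligonucleotides for one transcript.

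With 1 array per condition, no test could be run, no SD between cultures could be given, and precision is limited by the number of arrays. In total RNA, fewer cells that express a gene and less RNA per cell cannot be told apart. No probe set is named here for PTHLH, whose own level is thus not analysed. The description of both samples names another line, CX-1, and for the PTHLH sample another gene, RAB3C. The titles and characteristics name Ca9-22 and PTHLH and were followed. Of 8 squamous epithelial markers, 5 were measured, all above the median of both arrays, and the basal keratin KRT5 had 7823 with the empty vector and 10228 with PTHLH. The 8 intestinal markers were examined because CX-1 is a colon cancer line. They lay between 9.40 and 45.4 with the empty vector and between 7.75 and 37.1 with PTHLH, against array medians of 19.5 and 19.4. By brightest probe set, 4 were above both medians, VIL1, CDX2, CDX1 and MUC2, and 4 were below both. All other probe sets of VIL1 and CDX2 were below both medians, and CDX1 and MUC2 have 1 probe set each.

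Pyrophosphate, a pair of joined phosphate groups, blocks the growth of calcium phosphate crystals, and mineralizing tissues remove it. ENPP1 makes it outside the cell from nucleotide triphosphates, and ANKH, a membrane protein, supplies it from inside the cell. ALPL, the tissue-nonspecific alkaline phosphatase of bone, liver and kidney, splits it into phosphate. PHOSPHO1 frees phosphate from phosphocholine in the vesicles that start mineral, and SLC20A1 and SLC20A2 carry phosphate into cells together with sodium. ALPP and ALPI are the placental and intestinal alkaline phosphatases. The human alkaline phosphatases are held on the outer cell surface by a glycosylphosphatidylinositol (GPI) anchor, and placental alkaline phosphatase is a known product of some tumors outside the placenta.

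ALPP and ALPI stand side by side on chromosome 2 with a closely related gene between them, ALPG, which encodes the germ cell alkaline phosphatase. The sequences before their start sites are shown because ALPP differed on the arrays by more than its neighbors did although the promoters are related. Each is the 250 bases before the RefSeq start in GRCh38.p14, on the plus strand, 5′ to 3′. The ranges are chr2:232378501-232378750 for ALPP, chr2:232406594-232406843 for ALPG and chr2:232455903-232456152 for ALPI. Capitals mark a match to TGTGGT or its reverse complement ACCACA, the core letters bound by RUNX factors.
ALPP: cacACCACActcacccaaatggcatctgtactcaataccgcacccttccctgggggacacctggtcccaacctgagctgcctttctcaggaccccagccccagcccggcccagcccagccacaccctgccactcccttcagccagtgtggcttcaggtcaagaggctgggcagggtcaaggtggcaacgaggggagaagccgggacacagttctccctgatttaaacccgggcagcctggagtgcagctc
ALPG: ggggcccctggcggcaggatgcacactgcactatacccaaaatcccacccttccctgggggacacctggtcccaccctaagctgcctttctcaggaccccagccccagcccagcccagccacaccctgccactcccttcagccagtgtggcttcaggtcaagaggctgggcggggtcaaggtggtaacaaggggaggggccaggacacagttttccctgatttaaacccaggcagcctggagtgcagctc
ALPI: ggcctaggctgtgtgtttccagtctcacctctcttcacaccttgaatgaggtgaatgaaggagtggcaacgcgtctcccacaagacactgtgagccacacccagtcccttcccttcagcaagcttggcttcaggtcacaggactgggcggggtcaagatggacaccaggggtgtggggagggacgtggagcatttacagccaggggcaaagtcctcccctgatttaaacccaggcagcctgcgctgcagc
In a global alignment, ALPP and ALPG were identical in 84.4% of columns, ALPP and ALPI in 56.6%, and ALPG and ALPI in 57%. The promoter of SLC20A1, a gene from another family, was identical to that of ALPP in 47.5% of columns under the same scoring. The core letters of the RUNX site occur once before ALPP, from position -247, and are absent from this window of ALPG, ALPI, SLC20A1, ENPP1, ANKH and PHOSPHO1 and from the 3 promoters listed for ALPL. Of all 35116 promoter windows of this length, 11% hold them on either strand. Neither the full cAMP response element TGACGTCA, held by 1.65% of windows, nor the AP-1 site TGANTCA, held by 6.57%, was found in any of these windows. The shorter core TGACG, in either orientation, occurs before SLC20A1 from position -100, before PHOSPHO1 from -32 and in 1 of the ALPL windows from -213, and 21.2% of all windows hold it. SLC20A2 was not examined for these letters. A match describes letters and not a bound site, and the arrays did not measure binding.

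The 8 genes were read by 22 probe sets that name only that gene. Of these probe sets, 12 were above the median intensity on both arrays and 10 were below it on both. The deposited values hold no detection calls, so the dim probe sets show neither that a transcript was present nor that it was missing. A difference is the log2 intensity on the PTHLH array minus that on the empty vector array, and a change of 1.5-fold, the threshold of the study, was counted in each direction. By the brightest probe set of each gene, 1 of 8 genes was at least 1.5-fold higher with PTHLH, against 1.97% of all genes, and 1 was at least 1.5-fold lower, against 3.52%. The higher gene was ALPP and the lower one SLC20A1. By probe set, 1 of 22 was at least 1.5-fold higher, against 2% of the 41097 probe sets with 1 symbol, and 2 were at least 1.5-fold lower, against 2.78%. Since the list was chosen with such values known, its counts are not read against those shares. The median difference over the 8 genes was -0.02 on the log2 scale, beside 0 over all genes, and 6 genes lay within 1.5-fold.

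**Figure D1:**
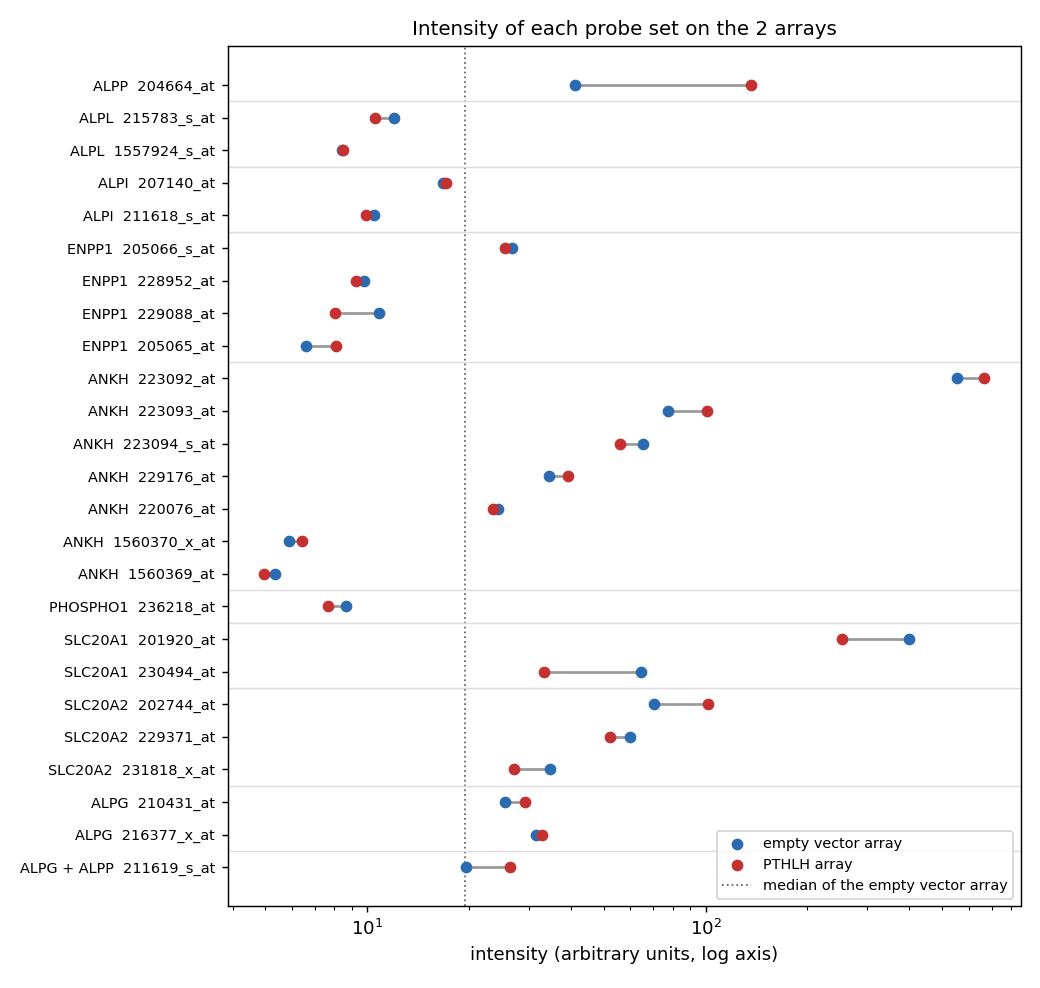
Intensity (arbitrary units, log axis) of the 22 probe sets of the 8 genes, the 2 probe sets of ALPG and the probe set shared by ALPG and ALPP, with 1 array per condition. Blue points are the empty vector array, red points the PTHLH array, and the dotted line is the median of the empty vector array at 19.5. ALPP goes from 41.1 to 137, and both probe sets of SLC20A1 lie lower on the PTHLH array.

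ALPP, the placental alkaline phosphatase, had an intensity of 41.1 with the empty vector and 137 with PTHLH. Both values were above the array medians, and the PTHLH value was 3.32-fold higher, a log2 difference of 1.73. By the brightest probe set, only 3 of the 19775 genes had a larger increase. This rests on a single probe set, 204664_at, since no other probe set names ALPP alone. One further probe set, 211619_s_at, is annotated to both ALPP and ALPG, and it had 19.6 with the empty vector and 26.4 with PTHLH. Its log2 difference was 0.43, in the same direction, within 1.5-fold and 1.30 below that of the ALPP probe set.

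ALPG was not among the chosen genes but is the closest relative of ALPP, and probes for one may bind transcripts of the other. Without and with PTHLH, its probe set 216377_x_at had 31.6 and 32.9, and 210431_at had 25.6 and 29.2. Both log2 differences, 0.06 and 0.19, lay within 1.5-fold. The large difference was therefore seen on the probe set for ALPP and not on those for ALPG, though a single probe set does not show which transcript bound it.

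ALPI, the intestinal enzyme, was dim on both of its probe sets. The brighter one had 16.8 with the empty vector and 17.1 with PTHLH, a log2 difference of 0.03. The other, 211618_s_at, had 10.5 and 9.92, a log2 difference of -0.08. ALPL, the enzyme of mineralizing bone, was dim too, with 12.0 and 10.5 on one probe set (log2 difference -0.18) and 8.41 and 8.47 on the other (0.01). Among the alkaline phosphatase genes, a 1.5-fold difference was thus found for ALPP, and not for ALPI, ALPL or ALPG on any probe set that names them alone. All 6 of these other probe sets had log2 differences between -0.18 and 0.19.

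ALPP is a gene of the placental trophoblast, so markers of that cell type were read beside it. All 8 listed were measured, CGA, PSG1, PSG3, GCM1, HSD3B1, PAGE4, KISS1 and ERVW-1. They ranged from 4.72 to 33.9 with the empty vector and from 4.95 to 32.5 with PTHLH. None was 1.5-fold changed, where 1.97% of all genes were higher and 3.52% lower, so a count of 0 among 8 genes says little. The median log2 difference was -0.12, beside 0 over all genes, and 6 markers were below both array medians. The 2 above the medians were CGA, a hormone subunit, with 23.7 and 20.4, and PSG1, a pregnancy glycoprotein, with 33.9 and 32.5. All other probe sets of CGA and PSG1 were below both medians.

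The phosphate importers SLC20A1 and SLC20A2 were each read by several probe sets. SLC20A1, the transporter PiT-1, had, on its brighter probe set, 201920_at, 400.1 with the empty vector and 253 with PTHLH. This value was 1.58-fold lower with PTHLH, a log2 difference of -0.66. Its second probe set, 230494_at, had 64.5 and 33.4, which was 1.93-fold lower, a log2 difference of -0.95. Both probe sets were above the medians of both arrays, and both passed 1.5-fold.

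Among genes with a brightest probe set at least 1.5-fold lower, such a match between probe sets was found for a minority. In 5594 genes the 2 brightest probe sets were above both medians, and in 191 of them, SLC20A1 included, the brightest was at least 1.5-fold lower with PTHLH. The second passed 1.5-fold in the same direction in 60 of the 191, or 31.4%, and was lower than the brightest in 25. The 191 were picked by their brightest probe set alone, and SLC20A1 was described with both of its values known. Both probe sets of a gene read the same 2 cultures, so this share says nothing about differences between cultures. By its brightest probe set, SLC20A1 was the 492nd lowest of the 19775 genes. SLC20A1 was the only one of the 6 genes with several probe sets in which all had the same direction. This count includes dim probe sets, which are all those of ALPL and ALPI and most of ENPP1, and their signs carry little weight.

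SLC20A2, the transporter PiT-2, had, on its brightest probe set, 70.4 with the empty vector and 102 with PTHLH, a log2 difference of 0.53 that stayed within 1.5-fold. Its other probe sets went the opposite way. The one with 60.0 and 52.1 had a log2 difference of -0.20, and 231818_x_at, with 34.6 and 27.1, had -0.35. All 3 were above both medians. The gap of 0.73 between the 2 brightest was matched or passed in 137 of the 5594 genes (2.45%), so these probe sets give no common direction for SLC20A2.

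**Figure D2:**
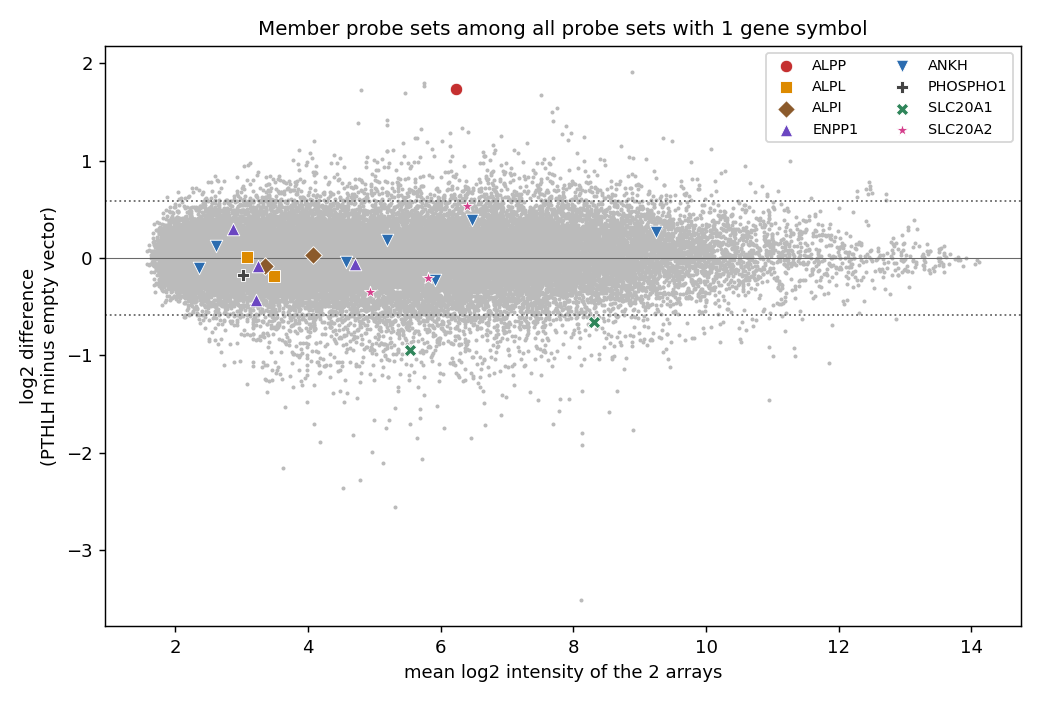
Log2 difference, PTHLH minus empty vector, against the mean log2 intensity of the 2 arrays, for the 22 probe sets of the 8 genes (colored symbols) among the 41097 probe sets with 1 gene symbol (grey). Dotted lines mark 1.5-fold, and the ALPP probe set at 1.73 and those of SLC20A1 at -0.66 and -0.95 lie outside them.

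ANKH, which supplies pyrophosphate to the outside of the cell, was read by 7 probe sets, of which 5 were above both medians. The brightest, 223092_at, had 555 with the empty vector and 667 with PTHLH, a log2 difference of 0.27. A dimmer one, 223093_at, had 77.3 and 101, a log2 difference of 0.39. Next in brightness, 223094_s_at went the other way, with 65.4 and 55.7 and a log2 difference of -0.23. The remaining 4 had log2 differences between -0.11 and 0.19, and no ANKH probe set reached 1.5-fold. For scale, the SD of one log2 difference, taken from the 2 brightest probe sets of the 5594 genes, was 0.20. That SD covers differences between probes and not between cultures.

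ENPP1, the enzyme that makes pyrophosphate, had, on its brightest probe set, 26.7 with the empty vector and 25.5 with PTHLH, a log2 difference of -0.07. Its other 3 probe sets were below both medians and had log2 differences of -0.08, -0.43 and 0.30. PHOSPHO1 was read by 1 dim probe set with 8.66 and 7.68, a log2 difference of -0.17. Over the 10 dim probe sets of all 8 genes, the log2 differences ran from -0.43 to 0.30 and none reached 1.5-fold.

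**Figure D3:**
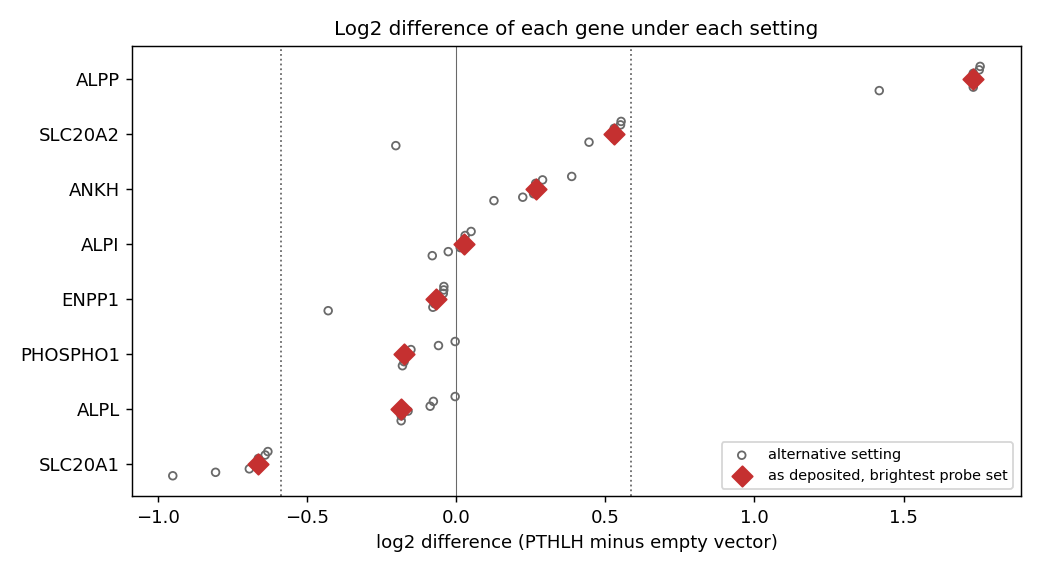
Log2 difference, PTHLH minus empty vector, of each of the 8 genes as deposited by its brightest probe set (red diamonds) and under each alternative setting that gave a value (open circles), with dotted lines at 1.5-fold. ALPP stays between 1.42 and 1.76 and SLC20A1 between -0.95 and -0.63, while SLC20A2 crosses 0. With a single bright probe set, ALPP could not move where probe sets were chosen or dropped or dim values raised.

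Genes of related functions, not all of which act on pyrophosphate, were taken from 4 lists. The lists were chosen with earlier results of these data known. Their counts are therefore printed beside the shares of all genes for scale and are not read against them. Among 13 measured genes of extracellular nucleotide and pyrophosphate enzymes and ATP release, 3 were at least 1.5-fold lower with PTHLH, against 3.52% of all genes, and none was higher, against 1.97%. The median log2 difference was -0.26, beside 0 over all genes, and 11 of the 13 had a difference below 0, as did 47% of all genes. That median is the value of ENPP4, a dim gene with 4.81 and 4.03, and the 13 include ALPG, at 0.06. ENPP2, or autotaxin, a relative of ENPP1 that makes lysophosphatidic acid, went from 108 to 25.8, a log2 difference of -2.06, with -1.89 on its second probe set. ENTPD2, which removes phosphate from ATP outside the cell, went from 198 to 91.7, a log2 difference of -1.11, but its other probe set was dim and had 0.04. ENPP5, another member of the ENPP family, went from 48.8 to 26.4, a log2 difference of -0.89, and a dim second probe set had -0.90. ABCC6, ENPP7 and ENTPD8 have no probe set named here.

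Among 15 other phosphate transporters and phosphate hormones, 1 was at least 1.5-fold higher (1.97% of all genes), none was lower (3.52%) and the median log2 difference was 0. The higher gene, SLC37A2, a sugar phosphate exchanger, went from 38.1 to 57.1 on its only probe set, a log2 difference of 0.59 at the edge of the threshold. XPR1, the phosphate exporter, was chosen after its values were seen because it carries phosphate out of the cell. It went from 379 to 281 on its brightest probe set, a log2 difference of -0.44. Its others had -0.62 and, on a dim probe set with 6.51 and 5.68, -0.20.

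Among 13 measured intracellular pyrophosphatases and small-molecule phosphatases, none was 1.5-fold changed in either direction by its brightest probe set. Over all genes, 1.97% were higher and 3.52% lower. The median log2 difference was 0.14, beside 0 over all genes. A dimmer PPA2 probe set, 1559496_at, went from 70.0 to 42.2, a log2 difference of -0.73. The other PPA2 probe sets all had differences above 0. Among 27 measured genes of GPI anchor synthesis and transfer, which build the anchor of the alkaline phosphatases, 1 was at least 1.5-fold higher (1.97% of all genes), none was lower (3.52%) and the median was 0. PIGW, an acyltransferase of the anchor's inositol, went from 32.7 to 76.6, a log2 difference of 1.23, on its only probe set. The other 26 lay within 1.5-fold.

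Bone cell markers were read because alkaline phosphatase, PHOSPHO1 and ANKH are best known from mineralizing tissue. Of 7 osteoblast markers, 6 were measured and none was 1.5-fold changed by its brightest probe set. Over all genes, 1.97% were at least 1.5-fold higher and 3.52% lower, so 0 of 6 says little. IBSP, SP7, DMP1 and SPP1 were below both medians, with intensities from 4.83 to 15.7 with the empty vector and from 4.57 to 15.5 with PTHLH. PHEX, a peptidase of the bone cell surface, was above both medians, with 40.6 and 47.4 on one probe set (log2 difference 0.22) and 24.3 and 33.9 on the other (0.48). COL1A1, a chain of type I collagen, had 2437 and 1652 on its brightest probe set, a log2 difference of -0.56. Its other probe sets had 102, 101, 40.8 and 17.1 with the empty vector. Their log2 differences were -0.01, -0.52, -0.66 and 0, and the one at -0.66 passed 1.5-fold. COL1A2, the partner chain, had 15.8 and 18.3 on its brightest probe set. Fibroblast markers beside these collagens, namely COL3A1, DCN, LUM and PDGFRA, lay between 3.58 and 28.6 with the empty vector and between 4.28 and 26.3 with PTHLH.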

How the data were processed

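The authors deposited probe set intensities on a linear scale, 1 value per probe set, from Affymetrix U133 arrays of RNA from 1 empty vector culture and 1 PTHLH culture. How they were background corrected, normalized and summarized is not given in the sources used. After a log2 transform, differences were taken as PTHLH minus empty vector, with no further scaling. Probe sets were named from GEO's platform annotation, and outdated symbols were replaced by way of their gene identifiers (RefSeq, GRCh38.p14). The 41097 with 1 symbol were used, and the 1801 with several and the 11777 unnamed here were left out of gene counts. A gene was represented by its brightest probe set. No test was run, and the scripts were tested on simulated data.

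The genes and lists were chosen with earlier results of these data known. All 8 genes and ALPG were named with every probe set, as were, from each related list, up to 5 genes per direction past 1.5-fold and above a median. For cell type markers the rule was to name the brightest. Others named were chosen after their values were seen. Promoters were aligned globally (match 2, mismatch -1, gap opening -5, extension -0.5). Python 3.11.15, pandas 2.3.3, numpy 2.4.6, matplotlib 3.10.9 and Biopython 1.88 were used.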

Additional observations from a re-analysis of the deposited data

How the results depend on the processing

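Over 9 alternatives, ALPP stayed at least 2-fold higher, and its log2 difference was 1.42 with log2(intensity + 16) and 1.73 to 1.76 otherwise. ALPP has a single probe set, above both medians. Alternatives that choose among probe sets, drop some of them or raise dim values therefore could not change its value. SLC20A1 stayed at least 1.5-fold lower in all alternatives but the 2-fold threshold, under which 0 of the 8 genes were lower, and SLC20A2 turned to -0.20 with the median over probe sets. Leaving out dim probe sets kept 5 of the 8 genes, with a median log2 difference of 0.27, and leaving out suffixes x and s dropped ALPL. Among related lists, extracellular enzymes had 2 lower with the median over probe sets (ENTPD2 lost) or at 2-fold (ENPP5 lost) and 4 with the most changed probe set (NT5E added), against 3. Other phosphate transporters had 0 higher with log2(intensity + 16) or the 2-fold threshold, and 1 lower (XPR1) where the most changed probe set stood for a gene. Intracellular phosphatases had 1 lower (PPA2) by that probe set or without suffixes x and s, and GPI anchor genes had 0 higher without those suffixes, since PIGW has no other probe set. Over all genes the counts, 390 higher and 696 lower, became 216 and 385 with log2(intensity + 16), 248 and 444 with the median, 689 and 984 with the largest change, and 36 and 145 at 2-fold. No paired analysis was possible because each condition has 1 array, and leaving out a replicate was impossible for the same reason.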
